A study of Mus musculus with 12 samples.

Results

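The effect of the Tnfr1 locus on transcript levels was measured in mouse glomeruli, the filtering tufts of the kidney, after 12 hours of culture with 50 ng/ml murine TNF. Of 12 expression arrays, 6 came from glomeruli without TNF receptor 1 and 6 from glomeruli with it. The 6 arrays without the receptor were 3 of Tnfr1,2-/- glomeruli (alleles Tnfrsf1atm1Mak and Tnfrsf1btm1Mwm) and 3 of Tnfr1-/- glomeruli (allele Tnfrsf1atm1Mak). The 6 arrays with the receptor were 3 of Tnfr2-/- glomeruli (allele Tnfrsf1btm1Mwm) and 3 of C57Bl/6J wildtype glomeruli. All mice were male and 6 to 8 weeks old. Both mutant alleles were on a B6.129 background and carried in every cell of the mutant animal. The wildtype and double-deficient mice had been bred from crosses of the single mutants. Each culture held 5000 glomeruli, serum starved and then exposed to TNF, so that all 12 arrays show stimulated tissue. Unstimulated glomeruli are not part of the comparison. The sources used here do not say whether the 3 preparations of a genotype came from separate mice, and p-values measure the spread between these preparations.

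TNFR1 (encoded by Tnfrsf1a) is carried by most cell types. On binding TNF it assembles the adaptor TRADD, TRAF2, the cIAP ubiquitin ligases and the LUBAC complex, and this complex activates the IKK kinases, NF-κB and the MAP kinases, or, when it is restrained, caspase 8 and cell death. TNFR2 (encoded by Tnfrsf1b) has no death domain and binds TRAF2 directly. In glomerular endothelial and mesangial cells TNF is known to induce chemokines and leukocyte adhesion molecules.

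The change of a gene is given as the difference of log2 signals, the mean of Tnfr1,2-/- and Tnfr1-/- minus the mean of Tnfr2-/- and wildtype, so that each genotype counts equally and a negative value is a lower signal without Tnfr1. A gene was called at a Benjamini-Hochberg adjusted p under 0.05 in limma and a change of at least 1.5-fold. Of 18194 genes, 290 (1.59%) were called lower and 169 (0.929%) were called higher without Tnfr1, together 2.52%, with a median change over all genes of 0.00. The decreases were the larger changes: 47 genes fell and 12 rose by at least 4-fold, and 19 fell and 1 rose by at least 10-fold. Genes whose 6 arrays without Tnfr1 all lay below the 6 with it numbered 243 of the 290, against 1.78% of all genes in that direction, and genes whose 6 arrays all lay above numbered 140 of the 169, against 1.2% of all genes.

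Apart from genotype, the arrays fell into 2 sets by the signal of a β-actin control, whose probe set near the 3′ end exceeded the one near the 5′ end by 0.667 to 1.005 on 7 arrays and by 1.82 to 2.30 on 5 arrays (log2). A wide 3′ to 5′ difference is a usual sign of shorter RNA or of shorter labelled copies. The second set held 3 arrays without Tnfr1 (Tnfr1,2-/- replicates 2 and 3, Tnfr1-/- replicate 3) and 2 with it (Tnfr2-/- replicate 3, wildtype replicate 3). The first principal component, 45.0% of the variance, followed these sets, which accounted for 87.7% of it, and the second, 21.2% of the variance, followed the Tnfr1 genotype, which accounted for 84.6% of it. Within each set most called genes had a change of at least 1.5-fold. These were 277 of the 290 decreases in the first set and 266 in the second, and 155 and 151 of the 169 increases. The genes had been called at that threshold from the arrays of both sets together, so these counts were largely set by the choice. The share of all genes past 1.5-fold within a set was not computed. The counts therefore do not show that the calls are independent of the sets. The sets are not named in the labels.

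**Figure D1:**
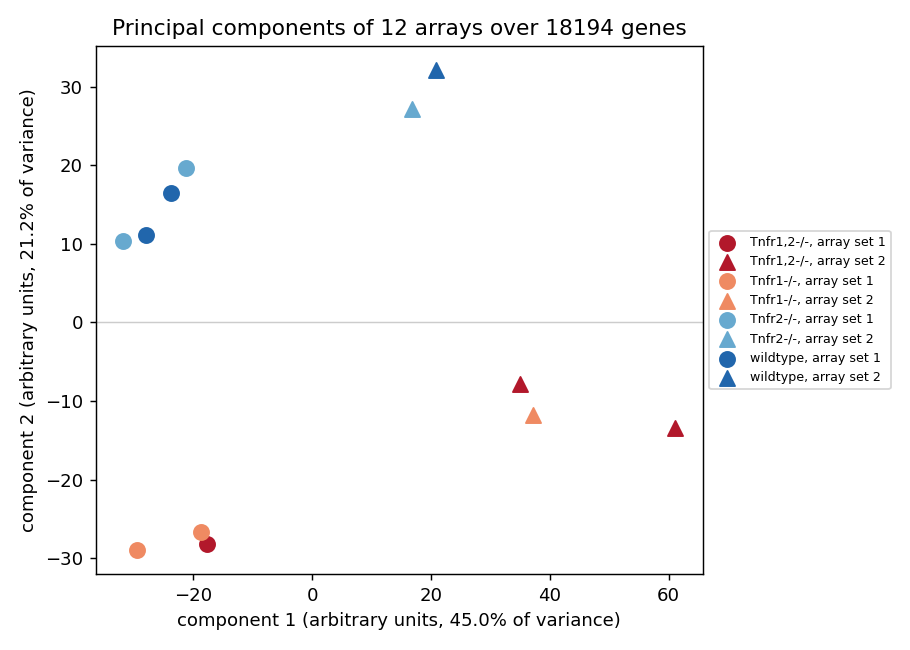
Principal components 1 and 2 of the 12 arrays (arbitrary units) over 18194 genes, coloured by genotype, with circles for array set 1 and triangles for array set 2. The 6 arrays without Tnfr1 lie below 0 on component 2 and the 6 with it above 0, while component 1 separates the array sets.

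Before the comparison, the targeted genes were read on each array. Tnfrsf1b had a log2 signal of 5.51, 5.37 and 5.57 in Tnfr1,2-/- glomeruli and of 5.66, 4.95 and 5.38 in Tnfr2-/- glomeruli, against 7.32, 8.36 and 6.76 in Tnfr1-/- glomeruli and 7.77, 7.71 and 7.41 in wildtype glomeruli. It was low in both genotypes labelled Tnfr2-deficient and its change with Tnfr1 was 0.00 (SE 0.23). Tnfrsf1a had 9.61, 9.14 and 9.11 in Tnfr1,2-/- and 9.80, 10.18 and 9.24 in Tnfr1-/- glomeruli, against 10.77, 10.82 and 10.60 in Tnfr2-/- and 10.70, 10.73 and 10.23 in wildtype glomeruli. It fell by 1.13 (SE 0.17, 2.19-fold, adjusted p = 0.0025) and the groups did not overlap, although the highest Tnfr1-/- array (10.18) lay just under the lowest wildtype array (10.23). Its probe set thus still gave a clear signal in both genotypes labelled Tnfr1-deficient, and whether its probes lie in the deleted part of the gene is not given in the sources used here.

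Markers of the cells a glomerulus holds were read on each array. The mean log2 signal of 11 podocyte markers was 9.98 to 11.5 on arrays without Tnfr1 and 10.5 to 11.1 on arrays with it, that of 13 markers of glomerular endothelium 9.08 to 9.97 and 8.81 to 9.79, and that of 11 markers of mesangium and vascular smooth muscle 9.33 to 9.80 and 9.14 to 9.72. That of 11 markers of tubular epithelium was 5.84 to 6.69 without and 5.50 to 6.20 with Tnfr1. Signals of different probe sets do not compare, so these levels say nothing of the share of each cell type. Tnfr1-/- replicate 2 stood apart in podocyte markers, with a mean of 9.98 against 11.23 to 11.48 on the other 5 arrays without Tnfr1. On it Wt1 was at 8.98, where the other 5 arrays without Tnfr1 had at least 11.05, and Plce1 at 8.07, where they had at least 10.51. With that array left out, 287 genes were called lower and 195 higher, and 403 of the 459 calls were kept.

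**Figure D2:**
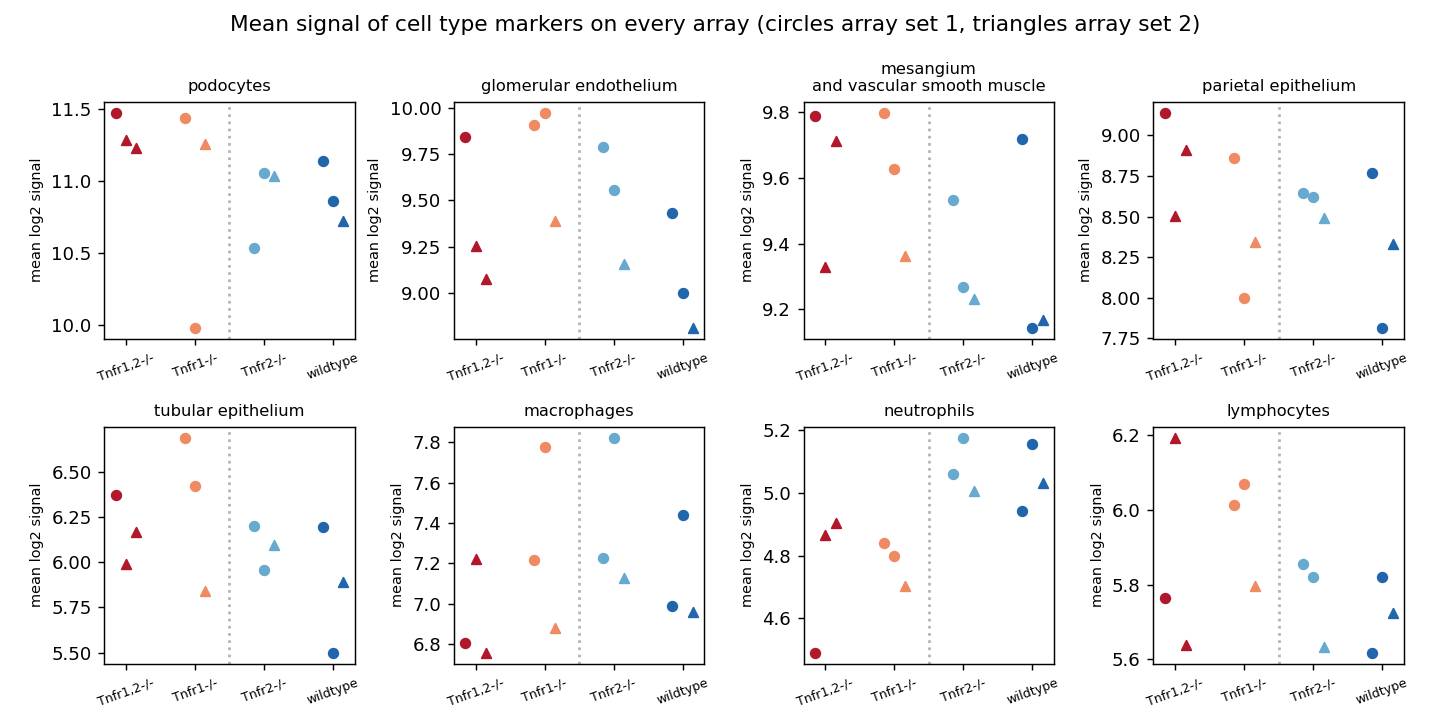
Mean log2 signal of the markers of 8 cell types on each of the 12 arrays, by genotype, with circles for array set 1 and triangles for array set 2. The Tnfr1-/- array at 9.98 lies below all others in podocyte markers, and the neutrophil markers have narrow ranges (4.49 to 4.90 without Tnfr1, 4.94 to 5.18 with it).

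Of the markers of podocytes, glomerular endothelium, macrophages, lymphocytes and tubular epithelium, none was called. Their median changes were 0.17, 0.31, −0.11, 0.12 and 0.19. For 3 of these lists the arms had opposite signs, without and with Tnfr2: podocytes 0.41 and −0.06, endothelium −0.09 and 0.69, macrophages −0.47 and 0.14. In podocyte markers, Tnfr1-/- replicate 2 had 9.98 and the other Tnfr1-/- arrays 11.44 and 11.26, against 10.72 to 11.14 on wildtype arrays. In endothelial markers, arrays of set 2 were the lowest of their genotype, such as Tnfr1,2-/- replicates 2 and 3 (9.25 and 9.08) and Tnfr2-/- replicate 3 (9.16). Whether these arrays account for the opposite signs was not tested. Without Tnfr1-/- replicate 2, the podocyte markers Wt1 (0.84, adjusted p = 0.026) and Plce1 (0.84, adjusted p = 0.025) were called higher. Of the 11 markers of mesangium and vascular smooth muscle, only Itga8, the α8 integrin chain, was called (0.98, list median 0.22). Of 7 parietal markers only Krt19 was called (1.33, list median 0.33). In that list 3 changes were negative, among them those of Cldn1 (−0.88) and Cd44 (−0.59), which were not called. Of 10 neutrophil markers, 5 had a negative change, the median was 0.005, and only 2 had a mean above 6 on either side. Camp and S100a8 were called lower (−1.78 and −1.22). Camp was at 4.28 to 5.14 without and 5.99 to 7.18 with Tnfr1, and S100a8 at 3.66 to 4.52 and 4.72 to 5.77. S100a9, the partner of S100a8, was at 4.31 to 4.83 without and 4.07 to 4.33 with Tnfr1. In these bulk samples, fewer cells of a type and less RNA per cell cannot be told apart, and the part of the cell makeup in the results was not tested.

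The promoters of the most affected genes are shown first, since NF-κB and the interferon-responsive factors are the known links between TNFR1 and such genes. RefSeq promoter sequences (GRCm38.p6, 250 bases before each transcription start) were at hand for 10 of the 15 genes with the largest decreases and 14 of the 15 with the largest increases. They were searched on both strands for the κB consensus and for the core of the interferon-stimulated response element (ISRE), in which the letters gaaa stand again after a gap of 2 bases. Of the 10 promoters of decreases, 5 held a match and 5 (Acod1, Slc2a6, Clec4e, Gpr84 and Cxcl9) held none. The 4 printed below were chosen to show both motifs, with the matches in capitals, and the fifth, that of Saa3, held 1 ISRE core.
Cxcl2, chr5:90903649-90903898, + strand: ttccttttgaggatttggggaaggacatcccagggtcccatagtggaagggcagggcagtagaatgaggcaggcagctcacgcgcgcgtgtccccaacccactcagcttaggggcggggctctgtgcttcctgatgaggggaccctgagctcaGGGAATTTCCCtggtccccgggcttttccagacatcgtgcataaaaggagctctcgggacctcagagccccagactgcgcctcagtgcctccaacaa
Cxcl3, chr5:90785851-90786100, + strand: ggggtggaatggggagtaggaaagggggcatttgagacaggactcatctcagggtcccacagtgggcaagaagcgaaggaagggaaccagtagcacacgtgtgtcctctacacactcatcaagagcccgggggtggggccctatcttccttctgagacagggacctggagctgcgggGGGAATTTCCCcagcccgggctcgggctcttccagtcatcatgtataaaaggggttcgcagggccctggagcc
Cxcl10, chr5:92348890-92349139, − strand: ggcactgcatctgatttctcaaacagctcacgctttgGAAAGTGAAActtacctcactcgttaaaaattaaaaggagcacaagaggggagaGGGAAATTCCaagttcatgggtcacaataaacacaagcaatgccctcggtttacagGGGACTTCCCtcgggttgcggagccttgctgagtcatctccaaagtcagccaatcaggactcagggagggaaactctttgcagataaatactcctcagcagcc
Gbp3, chr3:142559794-142560043, + strand: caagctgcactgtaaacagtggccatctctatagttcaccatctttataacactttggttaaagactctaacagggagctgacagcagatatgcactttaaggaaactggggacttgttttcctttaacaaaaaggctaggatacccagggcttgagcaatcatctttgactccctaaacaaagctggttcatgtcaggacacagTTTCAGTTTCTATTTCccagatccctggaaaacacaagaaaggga

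Cxcl2 and Cxcl3 carry the same run GGGAATTTCCC, in which 2 κB matches on opposite strands overlap. Cxcl10 carries 2 separate κB matches and an ISRE core match upstream of them, and Gbp3 carries 2 overlapping matches to the ISRE core, read on the other strand, and none to the κB consensus. The κB consensus stood in the promoters of 38 of 225 genes called lower (16.9%) and of 4 of 130 called higher (3.08%), against 772 of all 14453 tested genes with a promoter sequence (5.34%). The ISRE core stood in those of 19 of 225 genes called lower (8.44%) and 8 of 130 called higher (6.15%), against 453 of 14453 (3.13%). None of the 14 promoters of the largest increases held either motif. A match is a run of letters, not an occupied site.

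Of the 15 largest decreases, 5 were those of chemokines (Ccl2, Cxcl2, Cxcl3, Cxcl10 and Cxcl9), and the 4 largest were those of Ccl2, Cfb, Acod1 and Vcam1. Ccl2, the monocyte chemokine, had a log2 signal of 7.30, 6.67 and 6.63 in Tnfr1,2-/- and 6.78, 7.84 and 6.30 in Tnfr1-/- glomeruli, against 12.72, 12.77 and 12.04 in Tnfr2-/- and 12.51, 12.75 and 12.35 in wildtype glomeruli. All 6 arrays without Tnfr1 lay more than 4 log2 units below all 6 with it, and the change was −5.60 (SE 0.25, 48.6-fold lower, adjusted p = 2.95e-07). Cfb, the complement factor B of the alternative pathway, had 5.25, 5.62 and 5.43 in Tnfr1,2-/- and 5.18, 5.76 and 5.47 in Tnfr1-/- glomeruli, against 11.04, 11.26 and 9.85 in Tnfr2-/- and 10.47, 10.95 and 10.22 in wildtype glomeruli. It fell 36.3-fold (change −5.18, SE 0.23) with no overlap.

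Acod1, which makes itaconate from a Krebs cycle intermediate, had 4.34, 4.75 and 4.11 in Tnfr1,2-/- and 4.28, 3.82 and 4.33 in Tnfr1-/- glomeruli, against 9.44, 9.23 and 9.01 in Tnfr2-/- and 9.32, 9.54 and 9.37 in wildtype glomeruli. Its change of −5.05 (SE 0.14, 33.1-fold lower) had the smallest adjusted p of all genes, 9.30e-09. Vcam1, the endothelial ligand of the integrin VLA-4, had 7.65, 6.89 and 8.50 in Tnfr1,2-/- and 6.95, 8.53 and 7.63 in Tnfr1-/- glomeruli, against 12.43, 12.03 and 12.48 in Tnfr2-/- and 12.12, 12.38 and 12.24 in wildtype glomeruli. The levels without Tnfr1 were spread over more than 1.5 log2 units and those with it over less than 0.5, and the change was −4.59 (SE 0.29, 24.1-fold lower). The other 11 of the 15 largest decreases were those of Cxcl2 (−4.51), Slc2a6 (−4.51), Gbp3 (−4.48), Saa3 (−4.34), Clec4e (−4.25), Cxcl3 (−4.24), Gpr84 (−4.24), Cxcl10 (−4.20), Gbp6 (−4.17), Hp (−3.81) and Cxcl9 (−3.77), with SE between 0.14 and 0.34. Slc2a6 is a glucose transporter of lysosomes, Gpr84 a receptor for medium-chain fatty acids, Clec4e (Mincle) a C-type lectin and Hp haptoglobin, which binds free haemoglobin. Other probe sets of Vcam1 and Gbp6 changed by a like amount (−4.48 and −4.69 for Vcam1, −4.03 for Gbp6), while dimmer probe sets of Clec4e (−1.49) and Cxcl9 (−0.83) changed less.

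The largest fitted decrease of all, −5.93 (SE 0.96), was that of Gbp2b, an interferon-inducible guanylate-binding protein, named here after its values were seen because its groups overlapped. Its log2 signal was 4.36, 4.90 and 4.43 in Tnfr1,2-/- and 4.38, 4.38 and 4.77 in Tnfr1-/- glomeruli, against 12.06, 11.75 and 12.34 in Tnfr2-/- glomeruli and 10.79, 4.39 and 11.45 in wildtype glomeruli. Wildtype replicate 2 was as low as the arrays without Tnfr1, although Ccl2, Gbp2 (12.39) and Gbp3 (10.82) were high on it. Left out, the change of Gbp2b was −7.05 (adjusted p = 2.58e-08).

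**Figure D3:**
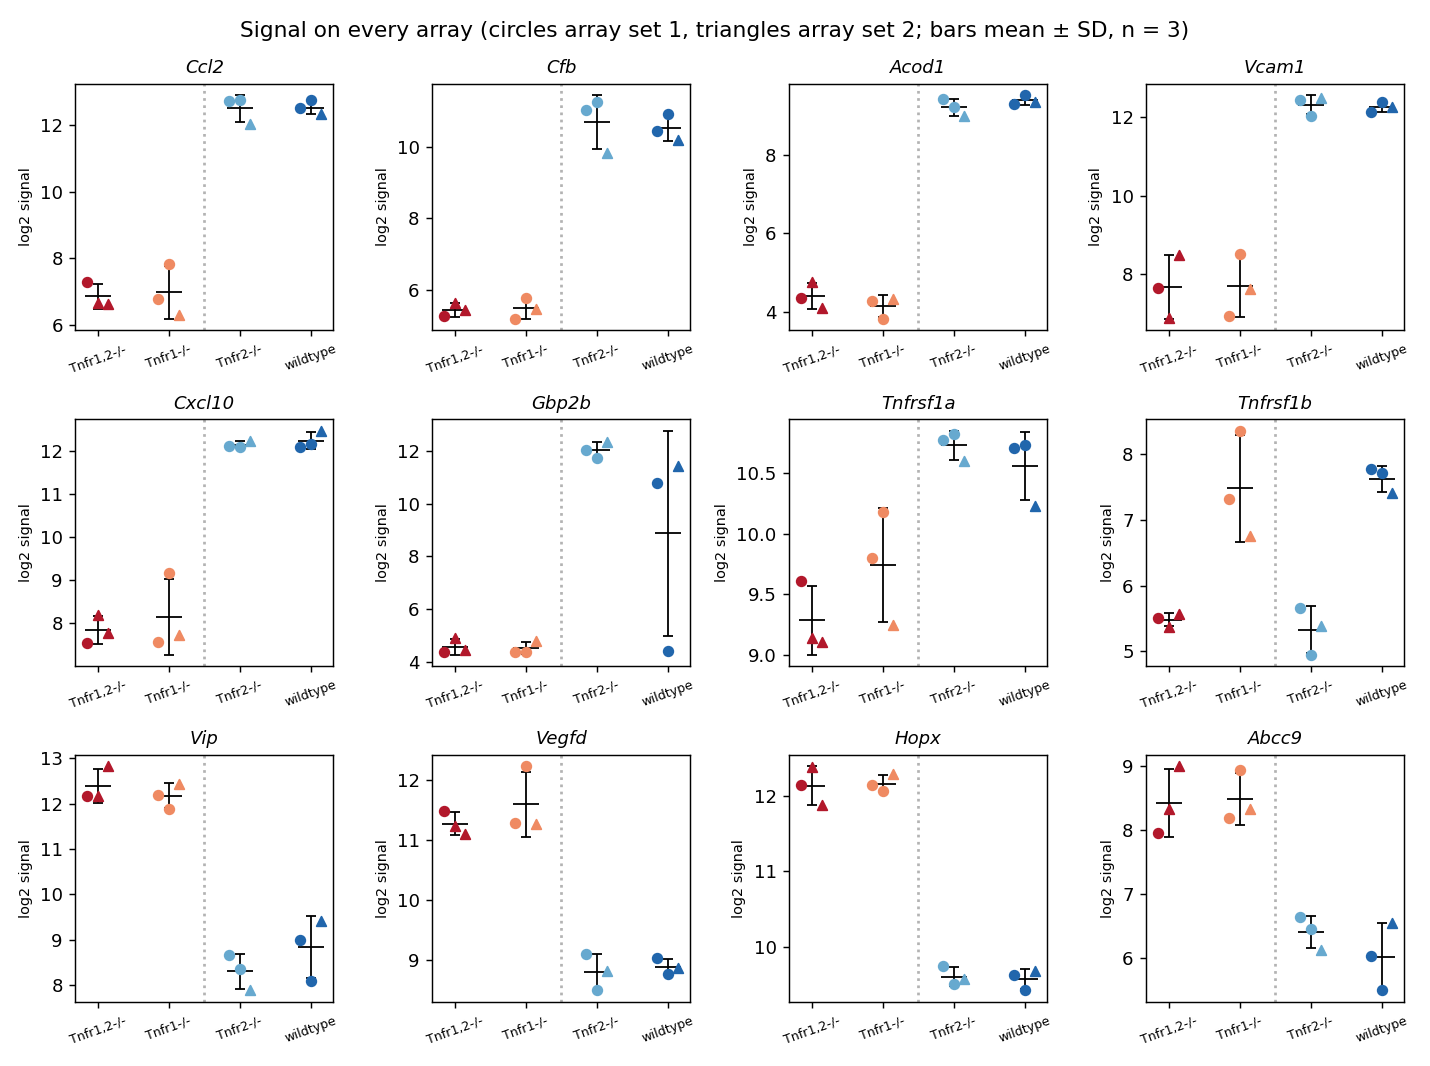
Log2 signal of 12 genes on every array, by genotype, with mean ± SD (n = 3). To the left of the dotted line, the 6 arrays without Tnfr1 lie below the others for Ccl2, Cfb, Acod1, Vcam1, Cxcl10 and Tnfrsf1a and above them for Vip, Vegfd, Hopx and Abcc9. Tnfrsf1b moves with Tnfr2, and 1 wildtype array of Gbp2b lies at 4.39.

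Vip, Vegfd and Hopx had the largest increases. Vip, the vasodilator peptide VIP, had a log2 signal of 12.16, 12.17 and 12.82 in Tnfr1,2-/- and 12.20, 11.89 and 12.43 in Tnfr1-/- glomeruli, against 8.67, 8.36 and 7.89 in Tnfr2-/- and 9.003, 8.09 and 9.42 in wildtype glomeruli. It rose by 3.71 (SE 0.23, 13.1-fold, adjusted p = 4.00e-06) with no overlap and was the only gene to rise by 10-fold or more. Vegfd, a ligand of the lymphatic receptor VEGFR3, had 11.48, 11.23 and 11.10 in Tnfr1,2-/- and 11.28, 12.22 and 11.27 in Tnfr1-/- glomeruli, against 9.11, 8.50 and 8.81 in Tnfr2-/- and 9.03, 8.77 and 8.87 in wildtype glomeruli. It rose 5.98-fold (change 2.58, SE 0.18), and its 2 other probe sets changed by 2.63 and 2.51.

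Hopx, a homeodomain cofactor that does not bind DNA, had 12.15, 12.39 and 11.88 in Tnfr1,2-/- and 12.14, 12.06 and 12.29 in Tnfr1-/- glomeruli, against 9.74, 9.50 and 9.57 in Tnfr2-/- and 9.62, 9.42 and 9.68 in wildtype glomeruli. The levels within each group were close, and the change of 2.56 had an SE of 0.11 (5.90-fold, adjusted p = 2.34e-07). Of the other 12, Heyl (2.45) is a transcriptional target of Notch, Nmb (2.40) encodes neuromedin B, Abcc9 (2.24) the regulatory subunit of a vascular ATP-sensitive potassium channel, Ppp1r3c (2.23) a subunit that brings protein phosphatase 1 to glycogen, Rgs2 (2.12) a brake on receptors coupled to Gq, and Gucy1a2 (1.93) a subunit of the nitric oxide receptor guanylate cyclase. The rest were Krt13 (2.42), Caln1 (2.41), Col8a1 (2.16), Bmx (1.99), Tmem178 (1.87) and Gdf10 (1.81). Dimmer probe sets of Caln1 (−0.04 and 1.54), Col8a1 (0.72 and 0.57), Ppp1r3c (0.53) and Krt13 (0.63 and 0.64) changed less than those used.

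Both arms of the layout can be read apart, since they share no array. Without Tnfr2 (Tnfr1,2-/- against Tnfr2-/-), 190 genes were called lower (1.04%) and 63 higher (0.346%), and with Tnfr2 (Tnfr1-/- against wildtype), 131 (0.72%) and 88 (0.484%). The arms differed in array sets: replicates 2 and 3 of Tnfr1,2-/- were of set 2, but of each other genotype only replicate 3. With the set as a block, the 253 calls without Tnfr2 became 404 and the 219 with it 470, so the order of these counts reversed. Every gene called in either arm changed in the same direction in the other. Of the 190 decreases called without Tnfr2, 169 were past 1.5-fold with Tnfr2, where 2.42% of all genes were that much lower, and of the 131 called with Tnfr2, 128 were past 1.5-fold without it, where 4.96% of all genes were. For the increases the counts were 57 of 63 (2.68% of all genes) and 66 of 88 (3.80%). Across all 18194 genes, which are not independent replicates, the changes in the arms had a Pearson's r of 0.62 and a Spearman's rho of 0.30.

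Of the 459 genes called over all 12 arrays, 161 were called in neither arm, 89 decreases and 72 increases with a median change of 1.84-fold. Each of them had the same direction in both arms, but they were called by the mean of these arms. That agreement was largely set by the choice and lends the calls no support. The largest were those of Hs6st2 (−1.93), Icosl (−1.87), Casp4 (−1.76), Cp (−1.72) and Dclk1 (−1.56) among the decreases, and of Ddn (2.02), Aplnr (1.74), Exoc3l2 (1.71), Eps8 (1.53) and Fam13c (1.46) among the increases. Icosl encodes the ligand of the T cell costimulator ICOS, Casp4 the inflammatory caspase 11 of mice, Cp the copper carrier ceruloplasmin and Aplnr the apelin receptor. Ddn encodes dendrin of the podocyte and was at 6.72 on Tnfr1-/- replicate 2, against 8.87 to 10.04 on the other 5 arrays without Tnfr1 and 6.61 to 7.42 on arrays with it. Its change was 2.44 without that array, and its call was lost with each of 3 other arrays left out (adjusted p up to 0.055). The calls of Clec2d and Exoc3l2 were lost with each of 10 arrays left out, those of Ptger2 and Hs6st2 with 8 and 7, that of Dclk1 with 4, that of Clec4d with 3 and that of Bst2 with 2.

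**Figure D4:**
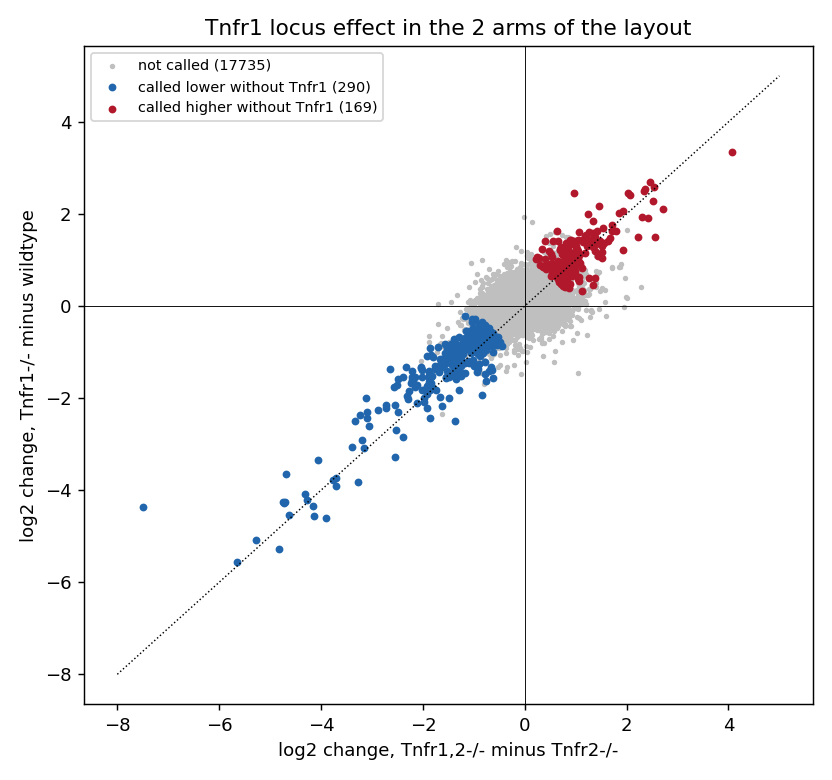
Log2 change per gene in glomeruli without Tnfr2 (Tnfr1,2-/- minus Tnfr2-/-, x axis) and with it (Tnfr1-/- minus wildtype, y axis), with called decreases in blue (290), called increases in red (169) and other genes in grey. The called genes, chosen by the mean of both arms, follow the dotted line of equal change. The point far to the left is Gbp2b (−7.49 without Tnfr2, −4.37 with it).

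Whether the effect of Tnfr1 differed with the Tnfr2 genotype was tested as an interaction. No gene was called by limma, the smallest adjusted p was 0.998, and 245 of 18194 genes had an unadjusted p under 0.05. By chance alone about 910 would have, so these p-values ran high and the test was a cautious one. The cause of this was not tested. The interaction is a difference of differences, and its median SE was 0.27, against 0.14 for the main change. For Ccl2 it was −0.08 (95% interval −1.18 to 1.01), for Acod1 0.44 (−0.17 to 1.05), for Vip 0.74 (−0.28 to 1.76) and for Hopx −0.06 (−0.53 to 0.41). In 28 of the 30 genes with the largest changes, every value in the interval was smaller than the change itself. The 5 smallest p-values were those of Prkch, Ampd2, Stard9, Afap1l1 and Angpt2. Angpt2, the endothelial antagonist of the receptor Tie2, was at 10.56, 10.99 and 10.78 in Tnfr1,2-/- against 10.54, 10.54 and 10.52 in Tnfr2-/- glomeruli, and at 10.99, 11.39 and 10.99 in Tnfr1-/- against 10.03, 10.05 and 10.10 in wildtype glomeruli. Its interaction was −0.82 (95% interval −1.28 to −0.36) before adjustment over all genes, and it missed the threshold after it.

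Gene lists were then read in the order of the pathway. In the receptor complex, 3 of 15 genes fell and 12 were not called (median −0.06). The genes that fell were Traf1 (−2.40), a TRAF without a RING domain, and the cIAP genes Birc3 (−1.21) and Birc2 (−0.93), while Tradd (0.03), Ikbkb (0.01) and Map3k7 (0.02) did not pass the test. Of 13 brakes on the pathway, 4 fell: Nfkbie (−1.90), Tnfaip3 (−1.69), which encodes the ubiquitin-editing enzyme A20, its partner Tnip1 (−1.65) and Nfkbia (−0.65), the gene of IκBα. Of 7 NF-κB subunit and atypical IκB genes, none was called, although all 7 changes were negative (median −0.60). Nfkb2 had −1.46 (SE 0.50, adjusted p = 0.23) and Relb −1.25 (SE 0.31, adjusted p = 0.062). The values of Nfkb2 spanned 7.28 to 9.71 without and 8.79 to 10.65 with Tnfr1, and on both sides the arrays of set 2 were the lowest ones. Relb was called without Tnfr1-/- replicate 2 (−1.42, adjusted p = 0.033).

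Of 15 genes of death signalling, 5 fell: Fas (−1.84), Casp12 (−1.83), Casp4 (−1.76), Bid (−1.55) and Tnfsf10 (−1.22), while Casp8 (0.02), Fadd (−0.26) and Ripk3 (0.22) were not called. Fas had 6.08 to 6.92 without and 7.94 to 9.03 with Tnfr1. These are the receptor Fas, the ligand TRAIL (Tnfsf10), a BH3-only protein (Bid) and inflammatory or ER-linked caspases.

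In each class of chemokines read at least 1 was called lower, and none was called higher. Among 7 that attract neutrophils, 4 fell: Cxcl2, Cxcl3, Cxcl5 (−3.22) and Cxcl1 (−2.04). Cxcl1 was at 9.64 to 11.45 without and 11.98 to 12.55 with Tnfr1. Cxcl5 was at 3.21 to 4.23 without and 6.11 to 7.50 with Tnfr1, and neither overlapped. Of the 3 ligands of CXCR3, which attract activated T cells, Cxcl9 and Cxcl10 fell and Cxcl11 did not pass the test (−0.51, SE 0.15). Of 16 CC chemokines, 5 fell: Ccl2, Ccl7 (−3.56), Ccl5 (−2.92), Ccl9 (−2.04) and Ccl20 (−1.35, a call lost without Tnfr1-/- replicate 2). The median of all 16 was −0.23. Of 5 other chemokines, only Cxcl16, the ligand of CXCR6 that exists in a membrane-bound form, was called (−2.16). Of these 5, 2 had a negative change and the median was 0.07. Cxcl13 (0.90) and Cxcl12 (0.32) were not called.

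Of 15 leukocyte adhesion genes, 3 fell: Vcam1, Icam1 (−3.70, SE 0.18), the ligand of β2 integrins, and Madcam1 (−2.77, SE 0.39), a vascular addressin best known from the gut. Icam1 was at 7.53 to 8.87 without and 11.20 to 11.95 with Tnfr1. The endothelial selectins Sele (−0.56) and Selp (−0.71) were not called, nor were Pecam1 (−0.12) and Icam2 (0.09). Madcam1 had 4.96 to 6.20 without and 7.17 to 9.33 with Tnfr1, and among the latter its 2 arrays of set 2 were the lowest (7.17 and 7.38).

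Of 23 cytokines and growth factors, 11 fell (median −0.86), with Il23a (−1.90), Lif (−1.68), Il1rn (−1.47), Csf1 (−1.46) and Il6 (−1.41) changing most. Csf1, the growth factor of macrophages, was at 8.66 to 9.98 without and 10.08 to 10.96 with Tnfr1. Tnf itself fell by 0.98 and Il1b by 0.99, Il1b from low levels on both sides (4.77 to 5.63 without, 6.09 to 6.55 with Tnfr1). Without Tnfr1-/- replicate 2, 10 of the 23 were called, Il6 and Tnfrsf9 no longer among them and Il18bp added.

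**Figure D5:**
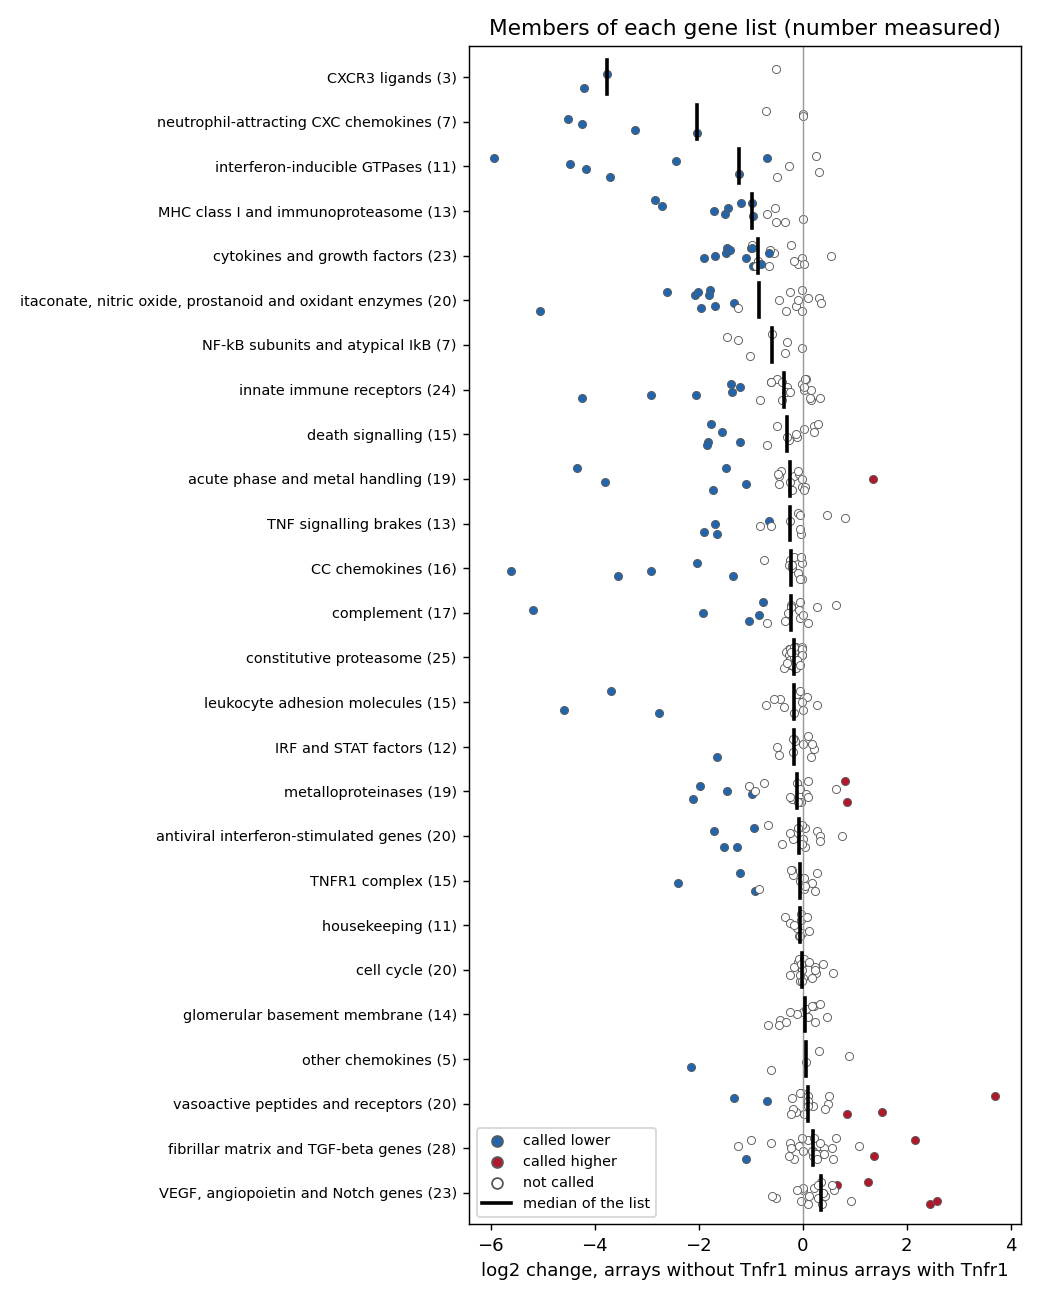
Log2 change (arrays without Tnfr1 minus arrays with it) of each member of 26 gene lists, filled where called, with the list median as a black bar and lists ordered by it. Called decreases stand in most immune lists beside members near 0 (7 of 11 interferon-inducible GTPases and 5 of 16 CC chemokines were called), all 25 constitutive proteasome genes lie near 0, and increases stand in the VEGF and Notch, matrix and vasoactive lists.

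Antigen processing was split by role. Of 13 genes of MHC class I presentation and the immunoproteasome, 8 fell and none rose (median −0.98). The 3 catalytic subunits of the immunoproteasome fell: Psmb10 (−2.83), Psmb8 (−2.70) and Psmb9 (−1.70), with Psmb8 at 7.11 to 9.16 without and 10.23 to 10.57 with Tnfr1. The peptide editors Tapbpl (−1.50) and Tapbp (−1.43), the transporter subunit Tap2 (−1.19), the trimming peptidase Erap1 (−0.98) and Psme1 (−0.97) fell as well, whereas H2-K1 (−0.68), H2-D1 (−0.53) and B2m (−0.34) were not called. Of the 25 genes of the constitutive proteasome, whose catalytic subunits Psmb5 to Psmb7 the immunoproteasome replaces, none was called, with changes between −0.36 and −0.01.

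Interferon-linked genes were divided. Of 11 interferon-inducible GTPases, 7 fell, with Gbp2b, Gbp3, Gbp6, Gbp2 (−3.72) and Ifi47 (−2.44) in front. On Tnfr1-/- replicate 2, Gbp6 was at 7.98 and Ifi47 at 9.80, above the other 5 arrays without Tnfr1 (at most 6.10 and 8.47). Of 20 antiviral interferon-stimulated genes, 4 fell, Oasl2 (−1.70), Xaf1 (−1.52), Bst2 (−1.26) and Ddx58 (−0.94), while 16 did not pass the test, among them Mx1 (0.04), Ifit3 (0.33), Rsad2 (0.75) and Usp18 (0.33), and the median was −0.07. Of 12 IRF and STAT genes, only Irf1 fell (−1.65, SE 0.23). Irf1, a factor known to drive Gbp and immunoproteasome genes, was at 9.15 to 10.56 without and 10.78 to 11.60 with Tnfr1.

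Of 17 complement genes, 5 fell: Cfb, Serping1 (−1.92), which encodes the C1 inhibitor, C1s1 (−1.04), C1ra (−0.84) and C2 (−0.76). The C1q chains, products of macrophages, were not called (−0.07 to −0.68). Of 24 innate immune receptors, 6 fell, among them Clec4e, Marco (−2.91, a scavenger receptor), Tlr2 (−2.06) and Fpr2 (−1.38). Tlr2 was at 5.93 to 6.20 without and 7.81 to 8.43 with Tnfr1, and its SE of 0.09 was small. Marco and Clec4e are best known from macrophages, and the mean signal of 14 macrophage markers was 6.76 to 7.78 without and 6.96 to 7.82 with Tnfr1, a median change of −0.11 with none called. Of 19 acute phase and metal-handling genes, 5 fell (Saa3, Hp, Cp, Lbp at −1.47 and the metalloreductase Steap4 at −1.10), and Slc40a1, the iron exporter ferroportin, rose by 1.35. Lcn2 (−0.07), Saa1 (−0.25) and Saa2 (0.04) were not called.

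Of 20 enzymes of itaconate, nitric oxide, prostanoid and oxidant metabolism, 9 fell: Acod1, Arg2 (−2.60), Ptgs2 (−2.07), Xdh (−2.01), Ptges (−1.96), Gch1 (−1.80), Cybb (−1.78), Sod2 (−1.69) and Ch25h (−1.32). Ptgs2 and Ptges make prostaglandin E2, Gch1 starts the synthesis of the nitric oxide synthase cofactor tetrahydrobiopterin, and Sod2 is the mitochondrial superoxide dismutase. The inducible synthase Nos2 (−0.25) was not called. Of 19 metalloproteinases and inhibitors, Mmp3 (−2.11), Mmp9 (−1.98), Mmp13 (−1.45) and Adamts9 (−0.97) fell, and the inhibitor Timp3 (0.85) and Mmp11 (0.82) rose.

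Of 20 vasoactive peptides and receptors, Vip, Npr3 (1.53), the clearance receptor of natriuretic peptides, and Ednrb (0.85), the endothelin B receptor, rose, and Ptger2 (−1.32) and Agtr1a (−0.69) fell. Npr3 was at 10.46 to 10.91 without and 8.85 to 9.59 with Tnfr1. Of 23 VEGF, angiopoietin and Notch genes, 4 rose and none fell (median 0.35): Vegfd, Heyl, Notch3 (1.25), the Notch receptor of pericytes and smooth muscle, and Angpt2 (0.65). Vegfa (0.56) and the receptors Flt1 (0.93, adjusted p = 0.056) and Kdr (0.59, adjusted p = 0.086) were not called. Without Tnfr1-/- replicate 2, Angpt2 (0.58) fell short of 1.5-fold and Vegfa was called higher. Of 28 fibrillar matrix and TGF-β genes, Col8a1 and Fbln5 (1.38) rose and Ltbp2 (−1.09) fell, and the fibrillar collagens Col1a1 (0.19), Col1a2 (0.19) and Col3a1 (0.64) were not called. None of 14 genes of the glomerular basement membrane, 20 of the cell cycle and 11 housekeeping genes was called (medians 0.04, −0.01 and −0.05).

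Tnfrsf1a lies on chromosome 6, and its neighbours were counted, since a targeted allele brings flanking DNA of its own strain. Within 10 Mb on either side, 14 of 221 genes were called (6.33%), 11 lower and 3 higher, against 441 of 17811 other genes of known position (2.48%). The genes that fell were Bid, C1ra, C1s1, Tapbpl, Clec2d, Clec4d, Clec4e, Clec4n (−1.52), Olr1 (−1.13), Ret (−1.15) and Slc25a18 (−0.88), and those that rose were Pparg (1.28), Apold1 (0.997) and Slc2a3 (0.70). The nearest of them was Tapbpl, at 6.33 to 6.91 without and 7.50 to 8.50 with Tnfr1. Clec4d, Clec4e and Clec4n lie side by side. Within 20 Mb, 21 of 333 genes were called (6.31%), 12 lower and 9 higher, against 2.45% of other genes. In this design an effect of the missing receptor and one of the flanking DNA cannot be told apart for the genes in these windows. Abcc9, named above among the largest increases, lies in the wider window.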

How the data were processed

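Biotin-labelled RNA of isolated glomeruli was hybridized to Affymetrix Mouse Genome 430 2.0 arrays. The deposited table holds log2 values that the authors computed by the robust multichip average over all 12 arrays, and it was used as it is. Of 45101 probe sets, 64 were controls, 34958 carried 1 gene symbol, 932 several and 9211 none. For each of 18194 genes the brightest probe set by mean over all arrays was kept (9012 genes had more than 1), and 18033 symbols were matched to RefSeq by gene ID. The 4 genotype means were fitted with limma 3.58.1 in R 4.3.3 (eBayes without trend, 8 residual degrees of freedom, two-sided). The number of arrays and the spread between them, array sets included, limit the precision (median SE 0.14).

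The genes named are the 15 largest decreases and 15 largest increases called without overlap, the receptors, up to 4 members of each list, 5 genes by interaction, 5 per direction called in neither arm, and called neighbours; other list members are named as examples after their values were seen. The comparison, the lists and this rule were chosen with earlier results of these data known.

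In simulated data with these means and spreads, the fit called 18%, 72%, 88% and 96% of genes changed by 0.5, 1, 1.5 and 2 log2 units (50 each of 18194 genes), with 4 false calls. The simulated noise was independent between genes and between arrays and held no array sets. These shares and the false calls therefore need not hold for the deposited values. The alternatives were other choices of probe sets, models, blocks, normalizations, thresholds and statistics, and each array left out.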

Additional observations from a re-analysis of the deposited data

Results flagged for a closer look

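In 28 of 344 groups of 6 arrays, the highest or lowest array stood further from the others than Dixon's critical value for 6 arrays allows, where chance gives about 1 in 20. In 14 of the 28 the array was Tnfr1-/- replicate 2. On it Wt1 was at 8.98, Plce1 at 8.07, Cd2ap at 9.84, Ddn at 6.72, Nmb at 9.52 and Adamts9 at 9.43, each below the other 5 arrays without Tnfr1. Gata3 (11.27), Gbp6 (7.98), Psmb8 (9.16), Ifi47 (9.80), Oasl2 (7.60), Cxcl1 (11.45), Clec4d (8.40) and Vegfd (12.22) were above them on the same array. The podocyte genes Wt1, Plce1, Cd2ap and Ddn were low on it together.

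On Tnfr1,2-/- replicate 3, Col8a1 (9.51) and Dclk1 (6.81) lay above the other arrays without Tnfr1, and the housekeeping genes Sdha (10.85) and Rplp0 (12.25) below them. Among arrays with Tnfr1, Gbp2b (4.39) and Krt13 (4.37) were lowest on wildtype replicate 2. Birc3 (11.22), Mmp3 (10.87), Ifi47 (10.59) and Gucy1a2 (7.71) were lowest on wildtype replicate 1. On wildtype replicate 3, Icam1 (11.20) and Agrn (10.02) were lowest and Rgs2 (10.46) highest, and Nmb was lowest on Tnfr2-/- replicate 3 (7.03).

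Of 10092 probe sets outside the gene table, which carry several gene symbols or none, 69 were called (0.68%), 48 lower and 21 higher. In the same fit 1.65% of the probe sets with 1 symbol were called. The largest change was that of a probe set without a single symbol in the annotation used here (−4.48, adjusted p = 1.68e-07 in limma), at a mean of 4.13 without and 8.61 with Tnfr1. The study assigns this probe set to Vcam1, so it is a further reading of that gene.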

How the results depend on the processing

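All 459 called genes kept their sign in every refit over the same genes, and 451 of the 452 measured did without probe sets of several transcripts. The genes had been called from these same arrays, so the kept signs were largely set by the choice. Of the 459 calls, 316 were kept in array set 1 alone and 198 in array set 2 alone. The counts of 290 decreases and 169 increases were 383 and 211 over all probe sets with a symbol, 268 and 133 with the mean of each gene's probe sets, 306 and 194 with the Tnfr1 genotype alone and 352 and 225 by SAM. They were 415 and 300 with array weights, 386 and 266 with the array set as a block, 165 and 75 within array set 2 alone (5 arrays), and 182 and 79 at a 2-fold threshold. The 253 calls of the arm without Tnfr2 and 219 of the arm with it became 760 and 356 with array weights and 404 and 470 with the array set as a block. With each array left out, the ranges were 242 to 311 decreases, 118 to 225 increases, 147 to 277 calls without Tnfr2 and 118 to 246 with it. The lowest counts of decreases and increases were those without Tnfr2-/- replicate 2. The arm without Tnfr2 fell to 167 without Tnfr1,2-/- replicate 2 and to 157 and 147 without Tnfr2-/- replicates 1 and 2, and the arm with Tnfr2 to 118 without wildtype replicate 2. The interaction had 0 calls throughout. Of 840 checks of the 30 genes with the largest changes, 839 were still called, the exception being Col8a1 in array set 2 alone (adjusted p = 0.054). These 30 were picked by size from calls without overlap in these same arrays, which left out Gbp2b. That count was therefore largely set by the choice. Gbp2b was not called in array set 1 alone (adjusted p = 0.19), and leaving out arrays for it was chosen after seeing the data. The cause of these shifts was not tested.

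The replicate number, which the labels give but tie to no shared mouse or day, was also fitted as a replicate block. It gave 430 decreases and 300 increases, 639 calls without Tnfr2, 437 with it and 0 for the interaction, and all 459 calls were kept. Of 18 pairs of arrays with the same number, 15 deviated from their group means with a correlation above 0.1 (range −0.23 to 0.73). So did 12 of 36 pairs with other numbers (range −0.76 to 0.51). In pairs of the same array set the correlation was positive and in pairs across sets negative, whatever the numbers. The numbers were not taken to pair the samples. Signals near background limit the dim genes: 83 of the decreases had a mean under 6 without Tnfr1 and 34 of the increases a mean under 6 with it, where an array can understate a change.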

Other observations

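Some small gene families outside the lists were read after their values were seen, and are given as values. All 3 measured subunits of soluble guanylate cyclase, the receptor of nitric oxide, rose without Tnfr1: Gucy1a2 by 1.93, Gucy1a1 by 1.34 and Gucy1b1 by 0.62. Both cGMP-dependent protein kinases rose, Prkg2 by 1.28 and Prkg1 by 0.75. Of 4 subunits of ATP-sensitive potassium channels, Abcc9 (2.24) and Kcnj8 (1.44), which together form the vascular channel, rose. Both lie on chromosome 6, as Tnfrsf1a does, more than 10 Mb from it. Abcc9 lies within 20 Mb, where an effect of the missing receptor and one of flanking DNA cannot be told apart. The distance of Kcnj8 is not given here, and an effect of flanking DNA on either gene was not tested. Of 17 cyclic nucleotide phosphodiesterases, Pde7b (1.34), Pde8b (1.19) and Pde9a (0.96) rose and none fell. Of 4 early B-cell factors, Ebf2 (1.57) and Ebf1 (0.73) rose.

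Parp14 (−1.81), Parp9 (−1.35) and its partner Dtx3l (−1.29) fell, as did Parp8 (−1.23) and Parp12 (−0.65). Of 4 genes of arginine transport and cleavage, Arg2 (−2.60), the transporter Slc7a2 (−1.82) and Arg1 (−1.35) fell. Of 14 zinc importers, Slc39a8 (−1.74) and Slc39a4 (−1.38) fell. The families were picked for their changes, so their counts support nothing further.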
